A study of Mus musculus with 33 samples.

Results

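Transcripts of 5 genes of the NF-kappaB pathway were followed in donor monocytes, namely the subunit genes Nfkb1 and Nfkb2, the adaptor genes Traf6 and Card9, and the sensor gene Nod2. They were taken by name from the 67 panel genes of the series, of which 57 had a value in all 33 libraries, and all 5 were measured in every library. Transcripts were read with nCounter, a hybridisation assay that counts barcoded probes, after reverse transcription and pre-amplification. Each library of recovered cells was made from 100 sorted cells. Monocytes of wild-type C57BL/6 bone marrow (BM) were injected into CCR2-/- recipients, which lack the chemokine receptor CCR2, and the donor cells were sorted from tissue 1 day after the transfer. Manipulated recipients had undergone surgical handling of the small intestine (SI) on the day before the transfer, under ketamine and xylazine and with Novalgin in the drinking water, and they gave 5 libraries from SI, 2 from liver, 3 from spleen and 3 from BM. Monocytes taken from manipulated donors were also given to non-manipulated recipients, whose SI gave 4 libraries. A single library came from primary monocytes, that is monocytes before transfer, of a manipulated donor. Non-manipulated recipients, which had no surgery, gave 4 libraries from SI and 3 each from liver, spleen and BM, and primary monocytes of non-manipulated donors gave 2. No library came from sham-operated recipients, so surgery, anaesthesia, the drug and inflammation cannot be told apart. SI and liver were digested with collagenase and spleen and BM were not, so tissue and digestion cannot be told apart either. Primary monocytes were enriched by negative magnetic selection, and neither a sort nor a cell number is given for them. Of the 4 libraries from manipulated donors in non-manipulated SI, the last is mouse 4 in its title and number 3 in its description, so these may come from 3 mice.

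NF-kappaB is a family of transcription factors that bind DNA as pairs of subunits and switch on genes of inflammation. Nfkb1 encodes p105, which is processed to the subunit p50, and Nfkb2 encodes p100, which is processed to p52, the partner of RelB in the slower, non-canonical branch of the pathway. Upstream, TRAF6 is the ubiquitin ligase that relays signals of Toll-like receptors and the IL-1 receptor, CARD9 is the adaptor that relays signals of C-type lectin receptors such as Dectin-1, and NOD2 is the cytosolic sensor of the bacterial cell wall fragment muramyl dipeptide. In the gut, monocytes and macrophages use these routes to respond to microbes, and much of the regulation lies in protein processing and binding, which transcript counts do not show.

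Each probe addresses 1 stretch of a RefSeq transcript, and the counts involve no alignment to a genome. The Nfkb1 probe addresses bases 2126 to 2225 of NM_008689.2 and the Nfkb2 probe bases 1151 to 1250 of NM_019408.2. The Traf6 probe addresses bases 981 to 1080 of NM_009424.2, the Card9 probe bases 1228 to 1327 of NM_001037747.1 and the Nod2 probe bases 1087 to 1186 of NM_145857.2. Probes differ in efficiency, so levels are compared between libraries and not between genes.

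Nfkb2 is itself known as a target of NF-kappaB, and of the members it varied most closely with Relb, so its promoter is shown. RefSeq promoter sequences of GRCm38.p6, of 300 bases each, were at hand for 4 of the 5 members and were searched on both strands for a common form of the kappaB site, GGGA and TTTCC with any 1 base between them. Nfkb2 has 3 promoters in RefSeq, of which 2 held a match, and these overlap and share the same match. The promoters of Traf6, Card9 and Nod2 held none. A match was found in 0.411% of all 32851 promoters searched. The Nfkb2 promoter at chr19:46305445-46305744, on the plus strand, is given here with the match in capitals, which lies within the last 50 bases, after the annotated start.
Nfkb2 promoter: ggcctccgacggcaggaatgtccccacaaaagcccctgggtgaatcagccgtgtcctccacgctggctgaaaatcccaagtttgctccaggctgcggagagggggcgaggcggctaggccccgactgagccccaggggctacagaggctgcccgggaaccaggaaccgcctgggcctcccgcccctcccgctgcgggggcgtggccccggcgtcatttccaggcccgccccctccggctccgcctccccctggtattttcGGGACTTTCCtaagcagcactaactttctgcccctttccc
A match describes these letters only, and binding was not measured.

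All 165 values of the 5 genes were well above the background of the negative control probes, with a lowest count of 1150, which was 30.8 times the background of its library. Total counts lay between 653885 and 1626501 per library. Libraries 3 and 4 of manipulated SI had the lowest positive control sums, at 4927 and 4659 counts, whereas the other 31 libraries lay between 10211 and 24095. Several results that rest on manipulated SI are therefore also given without these libraries. Monocyte and macrophage markers were present throughout, with 8 of 11 listed markers measured and a summed level of 262165 to 426496 normalised counts in manipulated SI and of 254589 to 359357 in non-manipulated SI. None of the listed markers of neutrophils, lymphocytes or epithelial and stromal cells was measured, and of the dendritic cell markers only Ccr7 was, so other cell types in the sort were not tested for.

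Levels are given as log2 of the count normalised to Actb, Gapdh and Rpl19 (mean ± SD), and differences as log2 differences ± SE from a limma fit across all 33 libraries and 57 genes, with Benjamini-Hochberg adjusted p and a threshold of 0.05. Across all libraries Nfkb1 was the least variable of the 5, with an SD of 0.47, and ranked 6th from the lowest among 57 genes. Traf6 (0.62, rank 8), Card9 (0.67, rank 10) and Nfkb2 (0.76, rank 12) followed, and Nod2 (0.89, rank 22) varied most, against a median of 1.10 over all genes. All 5 lay below this median. Groups explained 56.6% of the variance of Card9 and 53.2% of that of Nod2, against 43.0% for Nfkb1, 45.3% for Nfkb2 and 44.3% for Traf6, with a median of 50.6% over all genes.

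**Figure D1:**
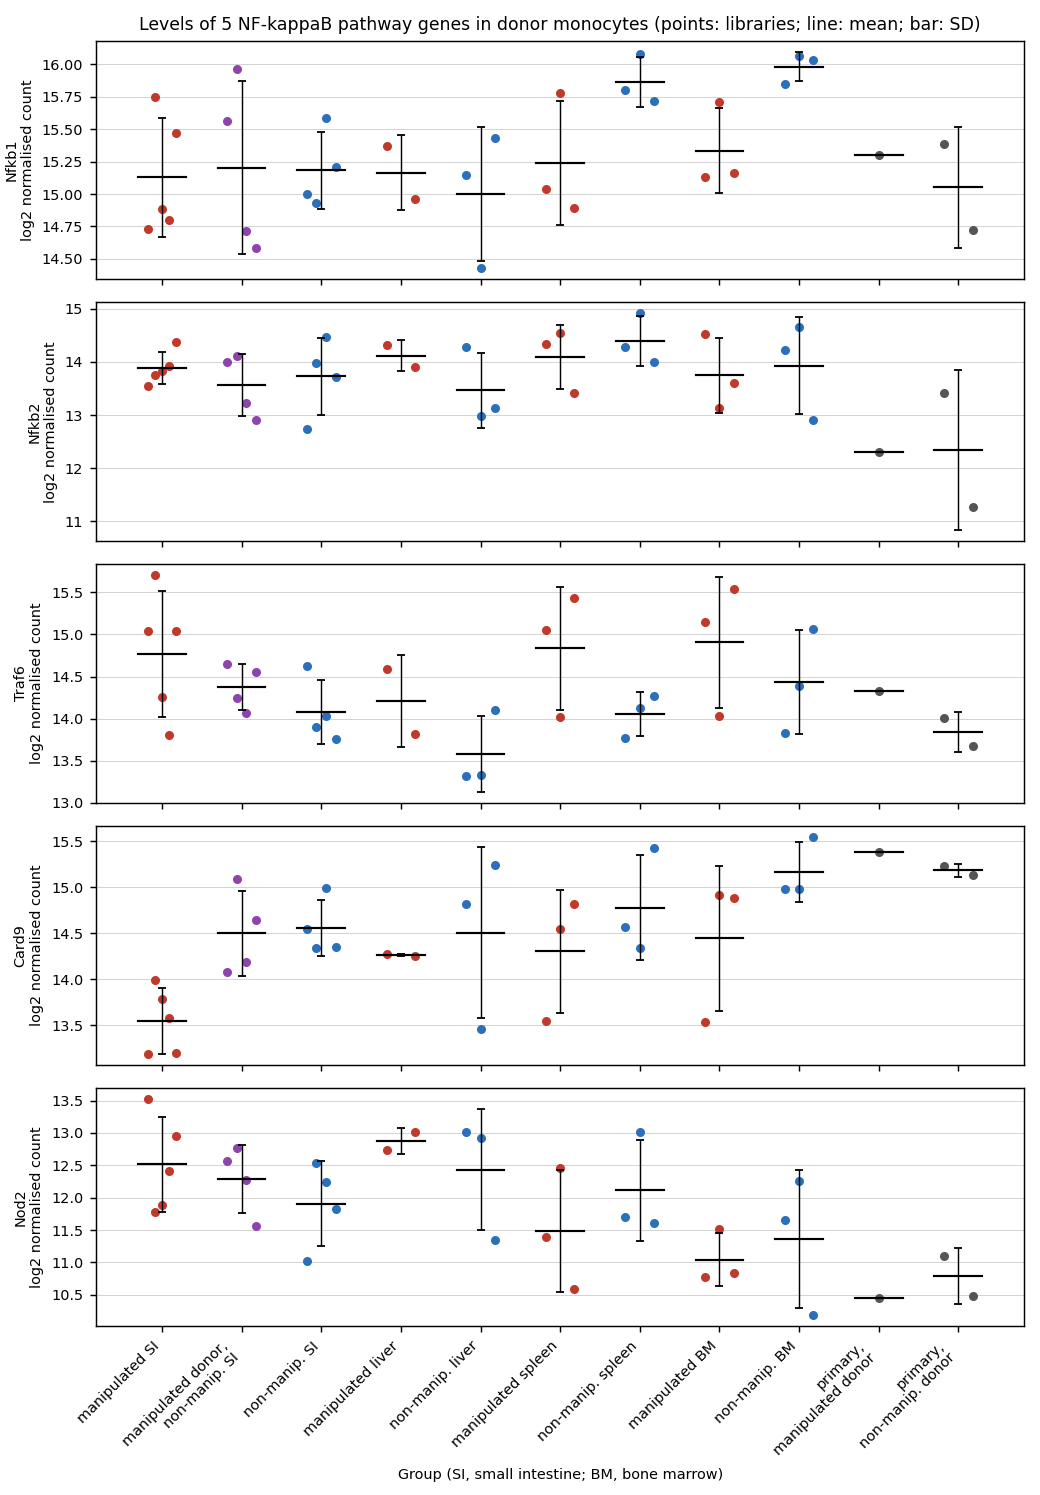
Level of each gene (vertical axis, log2 normalised count) in every library (points) of the 11 groups, with the group mean (line) and SD (bar). Card9 in manipulated SI lies at 13.19 to 13.99, below all 4 libraries of non-manipulated SI, and Nfkb1 in non-manipulated spleen and BM lies at 15.72 to 16.08, above all libraries of non-manipulated SI and liver.

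The first question was whether a manipulated gut changes these transcripts in incoming monocytes. In SI 1 of the 5 members, Card9, passed the test and was lower in manipulated recipients, where 33.3% of the 57 genes passed in either direction and 14% were lower (45.6% had an unadjusted p under 0.05). Card9 measured 13.19, 13.99, 13.79, 13.58 and 13.19 in the 5 libraries of manipulated SI, against 14.54, 14.33, 14.99 and 14.35 in the 4 libraries of non-manipulated SI. All 5 libraries of manipulated SI lay below all 4 of non-manipulated SI, a lack of overlap seen in 38.6% of the 57 genes. The level was 2.01-fold lower (log2 difference -1.01 ± 0.38, adjusted p = 0.0413). In sorted cells of a bulk library, a smaller share of Card9-positive cells and less Card9 RNA per cell cannot be told apart.

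The size of the Card9 difference was steadier than its call when single libraries were left out, but it moved with the scaling. It lay between -1.12 and -0.86 when each of the 9 libraries was left out in turn, but the adjusted p was then above 0.05 for 7 of them, namely all 4 of non-manipulated SI (0.0741, 0.0578, 0.119 and 0.0553 without libraries 1 to 4) and libraries 1, 4 and 5 of manipulated SI (0.0773, 0.0617 and 0.0898). Without libraries 3 and 4 of manipulated SI it was -1.10 (adjusted p = 0.0499). Some libraries were deposited as counts times a constant, which was divided out, and within the libraries with and without a constant the difference was -1.15 and -0.85 (adjusted p = 0.196 and 0.335). Among the house-keeping genes, Actb had 71677 to 128120 counts in manipulated SI against 142844 to 191039 in non-manipulated SI. Gapdh had 51728 to 95817 against 96436 to 110677. These counts are not corrected for the total of each library. The Card9 difference was -1.22 without Actb in the scaling (adjusted p = 0.0211). Without Rpl19 it was -0.75 and with the authors' normalised values -0.47, and neither passed (adjusted p = 0.23 and 0.435), with the median of all genes at 0.24 and 0.52 under these scalings.

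None of the other 4 members passed in SI. Traf6 was at 15.04, 15.71, 14.26, 13.80 and 15.04 in manipulated SI, against 14.62, 13.90, 14.03 and 13.76 in non-manipulated SI. The low libraries of manipulated SI were 3 and 4, those with low positive controls, and the groups overlapped. The difference was 0.69 ± 0.39 (adjusted p = 0.187), and without libraries 3 and 4 it was 1.19 and passed (adjusted p = 0.0237). It also passed with the authors' normalised values (1.23, adjusted p = 0.0222), under which the median of all genes was 0.52. Nod2 averaged 12.51 ± 0.74 in manipulated SI and 11.91 ± 0.66 in non-manipulated SI, a difference of 0.60 ± 0.50 (adjusted p = 0.347) with overlapping groups. Nfkb1 (-0.05 ± 0.32, adjusted p = 0.897) and Nfkb2 (0.16 ± 0.46, adjusted p = 0.775) were the members with the smallest differences. Nfkb2 spread less in manipulated SI, from 13.54 to 14.37, than in non-manipulated SI, from 12.74 to 14.47, which was not tested.

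The other measured genes of the pathway are given for the same comparison, and their difference from the members was not tested. These genes were chosen with earlier results of these data known. Of 7 measured genes for sensors, adaptors and a further subunit (Tlr1, Tlr2, Tlr4, Tlr8, Cd14, Trem1 and the subunit gene Relb) only Trem1, an amplifying receptor of myeloid cells, passed and was higher (2.00 ± 0.67, adjusted p = 0.0248), and the median of the 7 was 0.36 against -0.01 over all genes. Of 14 measured target genes 9 were higher and 0 lower, with a median of 1.90, where 19.3% of all 57 genes were higher. The 6 largest were Ccl7, Il6, Il1a, Il23a, Cxcl1 and Ccl2, at 7.64, 4.63, 3.92, 3.84, 3.73 and 2.64. The median of the 5 members was 0.16.

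In the distant organs no member passed the test. In liver 0% of the 57 genes passed, in spleen 0% and in BM 1.75%. In liver the 5 differences between manipulated and non-manipulated recipients lay between -0.24 for Card9 and 0.65 for Nfkb2, with SEs from 0.44 to 0.67. At an unadjusted p under 0.05, limma called 0 members in each of the 3 organs, against 10.5% of genes in liver, 10.5% in spleen and 14% in BM. The methods' t-test called 1 member, Nfkb1 in BM, where it called 4 of 57 genes. Nfkb1 was at 15.13, 15.71 and 15.16 in manipulated BM, against 15.85, 16.07 and 16.03 in non-manipulated BM, so that these groups did not overlap (12.3% of the 57 genes). The difference was -0.65 ± 0.39 (adjusted p = 0.444). In spleen Nfkb1 differed by -0.63 ± 0.39 (adjusted p = 0.406), with 15.04, 15.78 and 14.89 in manipulated recipients and 15.80, 16.08 and 15.72 in non-manipulated recipients. Between equally numbered libraries, which deviated together in these 2 organs, Nfkb1 differed by -0.76, -0.30 and -0.83 in spleen and by -0.72, -0.36 and -0.87 in BM. It was lower in all 3 pairs of each organ, as were 36.8% of genes in spleen and 43.9% in BM. With the library number as a block it did not pass in either (adjusted p = 0.453 and 0.395).

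Card9 in BM was the other member without overlap, at 13.53, 14.92 and 14.88 in manipulated BM against 14.98, 14.98 and 15.55 in non-manipulated BM (-0.72 ± 0.46, adjusted p = 0.481). In spleen Card9 was at 13.54, 14.55 and 14.82 in manipulated recipients and at 14.57, 14.34 and 15.42 in non-manipulated recipients (-0.47 ± 0.46, adjusted p = 0.709). In both organs library 1 of the manipulated recipients was the low one. Without this library the Card9 difference was -0.094 in spleen and -0.27 in BM. Card9 was thus lower on average in manipulated recipients in all 4 tissues, with differences between -1.01 and -0.24, and Traf6 was higher in all 4, with differences between 0.48 and 0.78. A single sign in all 4 tissues was found in 27 of the 57 genes (47.4%). In liver Card9 took the other sign under 3 of the alternatives, for example 0.02 when Rpl19 was left out of the scaling, and Traf6 did so in liver within the libraries with a constant (-0.28).

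Traf6 split the libraries of the manipulated recipients in the same way in 3 organs. In spleen it was at 15.05, 14.02 and 15.44 in manipulated recipients, against 13.76, 14.12 and 14.27 in non-manipulated recipients (0.78 ± 0.48, adjusted p = 0.406). In BM it was at 15.15, 14.03 and 15.54 in manipulated recipients, against 13.83, 14.39 and 15.07 in non-manipulated recipients (0.48 ± 0.48, adjusted p = 0.611). In liver it was at 14.59 and 13.82 in manipulated recipients, against 13.31, 13.32 and 14.10 in non-manipulated recipients (0.63 ± 0.53, adjusted p = 0.838). Library 2 was the low one in each of the 3 organs. Without the libraries numbered 2 the differences were 1.19 in spleen, 0.91 in BM and 1.01 in liver, and none passed (adjusted p = 0.137, 0.223 and 0.416). This setting was chosen after these libraries were seen to be low, which by itself makes the differences larger. It is not stated in the labels whether equal numbers mark one animal. Over all genes, equally numbered libraries of these organs deviated together in manipulated recipients. The lowest r was 0.733 between liver and spleen, 0.595 between liver and BM and 0.691 between spleen and BM. The 3 organs are therefore not independent observations of this split.

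For Nfkb2 and Nod2 the distant organs held no single direction. Nfkb2 differed by -0.30 ± 0.56 in spleen and by -0.18 ± 0.56 in BM (adjusted p = 0.889 and 0.845). Nod2 differed by 0.45 ± 0.67 in liver, -0.63 ± 0.60 in spleen and -0.32 ± 0.60 in BM (adjusted p = 0.991, 0.709 and 0.738). The signs of Nfkb2 in spleen and BM and of Nod2 in BM turned with the scaling.

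Whether the change in SI differed from that in the distant organs was tested as the SI change minus the mean change of liver, spleen and BM. No member passed, where 14% of the 57 genes did, all with the more positive change in SI. For Card9 this difference of changes was -0.53 ± 0.47 (adjusted p = 0.752) and for Nod2 0.77 ± 0.61 (adjusted p = 0.704). The lower Card9 in SI was therefore not shown to be particular to the gut. At an unadjusted p under 0.05, limma called 0 members, against 19.3% of all genes.

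**Figure D2:**
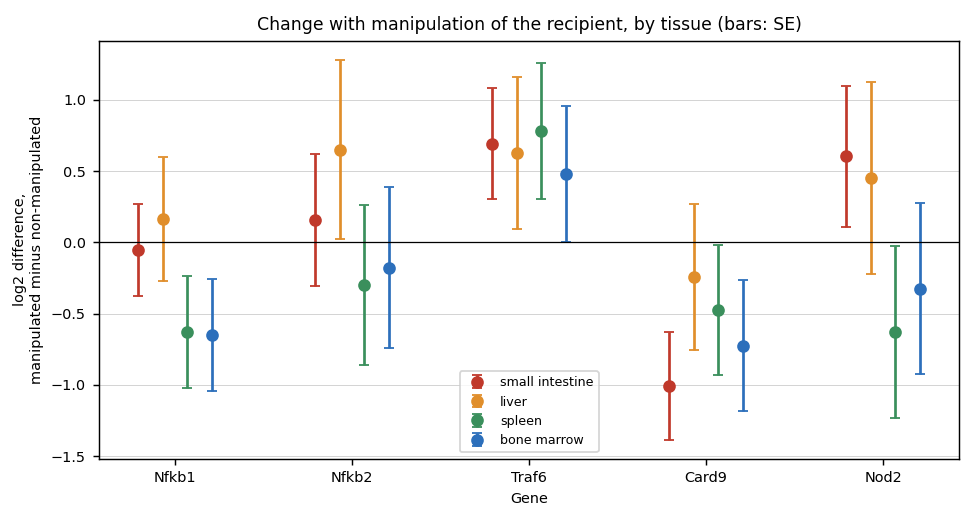
Difference between manipulated and non-manipulated recipients (vertical axis, log2, positive where manipulated is higher) for each gene in SI, liver, spleen and BM, with SE bars. Card9 lies below 0 in all 4 tissues, at -1.01 in SI, and Traf6 lies above 0 in all 4, between 0.48 and 0.78.

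Since Card9 and Traf6 went opposite ways, their counts were also set against each other within each library, a ratio that needs no scaling and was chosen after the values were seen. It is a description without a test, and its level depends on the probes, so only differences between groups can be read. The log2 ratio of Card9 to Traf6 was -1.85, -1.72, -0.47, -0.22 and -1.85 in manipulated SI, against -0.08, 0.43, 0.96 and 0.59 in non-manipulated SI. The 2 groups did not overlap, as they did not for Card9 alone. A lower mean ratio in manipulated SI was fixed by the choice of these genes. The share of other gene pairs without overlap was not computed. In liver it was -0.32 and 0.44 in manipulated recipients against 1.51, 0.13 and 1.14 in non-manipulated recipients, and these groups overlapped. In spleen it was -1.51, 0.53 and -0.62 in manipulated recipients against 0.81, 0.21 and 1.15 in non-manipulated recipients. In BM it was -1.62, 0.89 and -0.66 in manipulated recipients against 1.14, 0.59 and 0.48 in non-manipulated recipients. In both spleen and BM library 2 of the manipulated recipients lay within the range of the non-manipulated ones and the other 2 libraries lay below it. Primary monocytes had a ratio of 1.07 with the manipulated donor, against 1.23 and 1.46 with non-manipulated donors. Card9 was also set against Nfkb1, and this ratio was not tested either. Its mean was -1.58 in manipulated SI against -0.63 in non-manipulated SI. In the same order the means were -0.90 and -0.50 in liver, -0.93 and -1.09 in spleen, and -0.89 and -0.82 in BM.

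**Figure D3:**
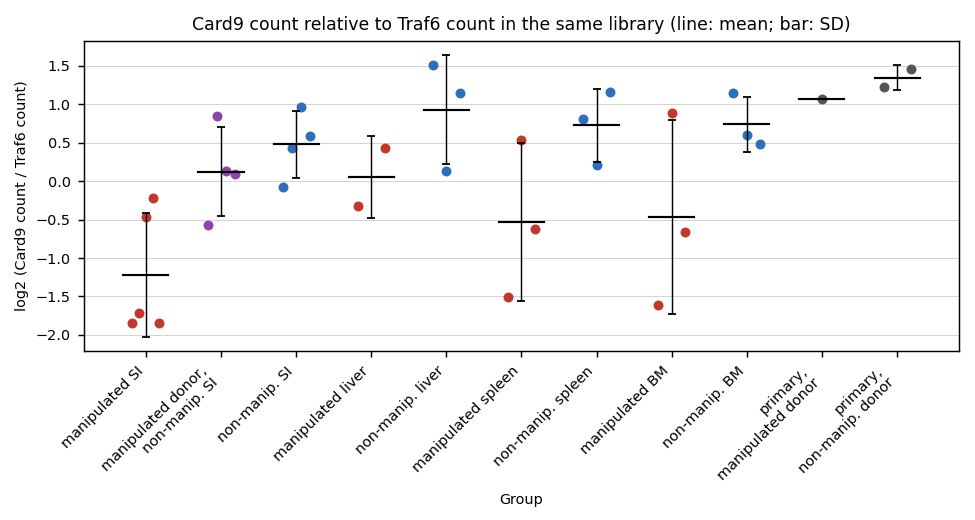
Card9 count relative to Traf6 count in the same library (vertical axis, log2 ratio) in the 11 groups, with each library (points), the mean (line) and the SD (bar). All 5 libraries of manipulated SI lie at -0.22 or lower, below the lowest of non-manipulated SI at -0.08. The 2 genes were chosen after their opposite directions were seen.

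The next comparisons asked how the level depends on the tissue that the monocytes had entered. In manipulated recipients 1 member in 1 of 6 pairs of tissues passed the test. Nod2 was 2.77-fold higher in SI than in BM (1.47 ± 0.54, adjusted p = 0.0344), a pair in which 35.1% of the 57 genes passed and 29.8% were higher in SI. Nod2 was at 13.53, 11.78, 11.89, 12.42 and 12.95 in SI and at 10.78, 11.52 and 10.83 in BM, and the groups did not overlap (29.8% of genes). The adjusted p was above 0.05 without library 1 or 5 of SI (0.102 and 0.069) and without library 1 or 3 of BM (0.107 and 0.121), and it was 0.0349 without libraries 3 and 4 of SI. Within the libraries with and without a constant the difference was 1.27 and 1.82 (adjusted p = 0.146 and 0.176). With TMM factors, which set the median difference of all genes at -0.14 and not at 0.42, Nod2 differed by 0.91 (adjusted p = 0.121).

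In manipulated recipients mean Nod2 was 12.88 ± 0.20 in liver (n = 2), 12.51 ± 0.74 in SI, 11.48 ± 0.94 in spleen and 11.04 ± 0.41 in BM. The difference between liver and BM was 1.84 ± 0.67 (adjusted p = 0.11), that between liver and spleen was 1.40 ± 0.67 (adjusted p = 0.31), and that between SI and spleen was 1.03 ± 0.54 (adjusted p = 0.183). Liver did not overlap with spleen or with BM, as was the case for 26.3% of genes in each of these pairs. The F test over the 4 tissues gave an adjusted p of 0.0619 for Nod2, in a test that 28.1% of genes passed. In non-manipulated recipients Nod2 was at 11.91 ± 0.66 in SI, 12.43 ± 0.94 in liver, 12.11 ± 0.78 in spleen and 11.37 ± 1.07 in BM (F test adjusted p = 0.769), and BM was again the lowest of the 4.

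Card9 had its lowest mean in SI of manipulated recipients, with 13.55 ± 0.36 in SI, 14.26 ± 0.01 in liver (n = 2), 14.30 ± 0.67 in spleen and 14.44 ± 0.79 in BM. SI was lower than liver by a log2 difference of -0.71 ± 0.47, than spleen by -0.76 ± 0.41 and than BM by -0.90 ± 0.41 (adjusted p = 0.534, 0.2 and 0.0991). In the test against BM, edgeR called Card9 on the same scaling (adjusted p = 0.0425), and with TMM factors limma called it against BM and spleen (-1.46 and -1.41, adjusted p = 0.0189 and 0.0239). Non-manipulated recipients had 14.55 ± 0.31 in SI, 14.51 ± 0.93 in liver, 14.78 ± 0.57 in spleen and 15.17 ± 0.33 in BM (F test adjusted p = 0.769). BM therefore had the highest and SI or liver the lowest mean Card9 in both kinds of recipient, without passing the test.

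In non-manipulated recipients Nfkb1 was higher on average in spleen and BM than in SI and liver, without passing the test. It lay between 14.93 and 15.59 in the 4 libraries of SI, with a median of 15.11, and at 15.14, 14.43 and 15.43 in liver. In spleen it was at 15.80, 16.08 and 15.72 and in BM at 15.85, 16.07 and 16.03. Every library of spleen and BM lay above every library of SI and liver. The differences were -0.68 ± 0.37 for SI minus spleen, -0.80 ± 0.37 for SI minus BM, -0.86 ± 0.39 for liver minus spleen and -0.98 ± 0.39 for liver minus BM. None passed after adjustment (adjusted p = 0.464, 0.166, 0.207 and 0.0793), and the last 3 had an unadjusted p under 0.05, as had 22.8%, 19.3% and 28.1% of genes. In these 4 pairs 7.02%, 12.3%, 7.02% and 15.8% of the 57 genes passed, and 15.8%, 26.3%, 17.5% and 31.6% did not overlap. The F test over the 4 tissues gave an adjusted p of 0.153 for Nfkb1, in a test that 8.77% of genes passed. In manipulated recipients the means were 15.13 ± 0.46 in SI, 15.17 ± 0.29 in liver, 15.24 ± 0.48 in spleen and 15.34 ± 0.32 in BM (F test adjusted p = 0.96), a range of 0.21 between SI and BM.

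For Nfkb2 and Traf6 the F test over tissues did not pass in either kind of recipient. Nfkb2 averaged 13.89 ± 0.31 in SI, 14.12 ± 0.29 in liver, 14.09 ± 0.60 in spleen and 13.75 ± 0.71 in BM of manipulated recipients (F test adjusted p = 0.96), and 13.73 ± 0.73 in SI, 13.46 ± 0.70 in liver, 14.39 ± 0.47 in spleen and 13.93 ± 0.92 in BM of non-manipulated recipients (adjusted p = 0.769). Traf6 averaged 14.77 ± 0.75 in SI, 14.21 ± 0.55 in liver, 14.83 ± 0.73 in spleen and 14.91 ± 0.78 in BM of manipulated recipients (F test adjusted p = 0.87), and 14.08 ± 0.38 in SI, 13.58 ± 0.45 in liver, 14.05 ± 0.26 in spleen and 14.43 ± 0.62 in BM of non-manipulated recipients (adjusted p = 0.769). Liver had the lowest mean Traf6 in both kinds of recipient.

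Over all 11 groups, the means spanned 1.98-fold for Nfkb1, 2.51-fold for Traf6, 3.58-fold for Card9, 4.23-fold for Nfkb2 and 5.36-fold for Nod2. When the groups were ordered by mean, 10 neighbouring pairs arose per gene. The gap exceeded the larger SD of the pair in 1 pair for Nfkb1, below non-manipulated spleen, and in 0 pairs for Nfkb2, Traf6 and Nod2. It did so in 1 pair for Card9, at its lower end between manipulated liver and manipulated SI, and the SD of manipulated liver rests on 2 libraries. Pairs with the single primary library of the manipulated donor, which has no SD, were left out, which left 8 pairs for Nfkb1 and Traf6 and 9 for the other members. Neighbours in all other of these pairs did not differ beyond their spread. The lowest mean was that of manipulated SI for Card9, of primary monocytes of the manipulated donor for Nfkb2 and Nod2, and of non-manipulated liver for Nfkb1 and Traf6.

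Recovered cells were then set against primary monocytes of non-manipulated donors, which have only 2 libraries. Monocytes from manipulated SI differed from them in 3 of the 5 members, where 35.1% of the 57 genes passed. Nfkb2 and Nod2 were higher, as were 31.6% of genes, and Card9 was lower, as were 3.51%. For all 3 the groups did not overlap (40.4% of genes). The median difference of all genes was 0.64 on this scaling, and -0.07 with TMM factors or total counts. The higher values and the small share of lower genes are both to be read against this shift.

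Card9 lay between 13.19 and 13.99 in manipulated SI, against 15.23 and 15.14 in the primary libraries of non-manipulated donors. The primary library of the manipulated donor was at 15.39. The difference between manipulated SI and the non-manipulated donors was -1.64 ± 0.47 (3.11-fold lower, adjusted p = 0.00693). With total counts as the scaling it was -2.35 (adjusted p = 0.000703), without library 1 of the primary monocytes it was -1.59 (adjusted p = 0.0505), with the authors' normalised values it was -1.40 (adjusted p = 0.0586), and without libraries 3 and 4 of manipulated SI it was -1.73 (adjusted p = 0.013). In non-manipulated SI Card9 differed from primary monocytes by -0.63 ± 0.49 (adjusted p = 0.424), with no overlap of the libraries (42.1% of genes). This difference depended on the scaling. It was -0.32 without Actb, -1.17 without Rpl19 and -1.23 with TMM factors (limma adjusted p = 0.631, 0.322 and 0.204). With DESeq2's own size factors it was -1.61 and passed (adjusted p = 0.0173).

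Nfkb2 was at 13.54, 13.75, 13.83, 13.93 and 14.37 in manipulated SI, against 13.41 and 11.28 in the primary libraries of non-manipulated donors. The primary libraries thus spread widely, with the manipulated donor between them at 12.31. The level was 2.91-fold higher in manipulated SI (1.54 ± 0.58, adjusted p = 0.0375). The difference was 0.47 without library 2 of the primary monocytes (adjusted p = 0.711), 0.83 with TMM factors (adjusted p = 0.195), 1.21 with edgeR (adjusted p = 0.114) and 1.54 without libraries 3 and 4 of manipulated SI (adjusted p = 0.0741). Library 2 of the primary monocytes had 19057 counts of Rpl19, against 3828 in library 1, and without Rpl19 in the scaling the difference was 1.26 (adjusted p = 0.0376). The call was also lost without library 4 or 5 of manipulated SI (adjusted p = 0.0524 and 0.0672).

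Nod2 lay between 11.78 and 13.53 in manipulated SI, against 11.10 and 10.48 in the primary libraries of non-manipulated donors. The primary library of the manipulated donor was at 10.46. The level was 3.30-fold higher in manipulated SI (1.72 ± 0.62, adjusted p = 0.0298). The adjusted p was above 0.05 without library 1 or 5 of manipulated SI (0.0652 and 0.0518) and without either primary library (0.0551 and 0.189). With TMM factors the difference was 1.01 (adjusted p = 0.122). Without libraries 3 and 4 of manipulated SI it was 1.96 (adjusted p = 0.0264).

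No member passed in any of the 4 tissues of non-manipulated recipients against the same primary monocytes, where 8.77% of the 57 genes passed in SI, 12.3% in liver, 1.75% in spleen and 1.75% in BM. These comparisons share the 2 primary libraries. The median difference of all genes was 1.00 in SI, 0.94 in liver, 0.42 in spleen and 0.37 in BM, so positive differences are to be read against this shift. Nfkb2 had positive differences of 1.38 ± 0.60 in SI, 1.12 ± 0.63 in liver, 2.05 ± 0.63 in spleen and 1.58 ± 0.63 in BM (adjusted p = 0.139, 0.217, 0.0938 and 0.214). Nod2 differed by 1.12 ± 0.64 in SI, 1.64 ± 0.67 in liver, 1.32 ± 0.67 in spleen and 0.58 ± 0.67 in BM (adjusted p = 0.281, 0.116, 0.282 and 0.826). Without library 1 of the primary monocytes, Nfkb2 passed in all 4 tissues, with differences of 2.45, 2.19, 3.12 and 2.65 in SI, liver, spleen and BM, and the lone primary library is then assumed to vary like the other groups. Without library 2 instead, the differences were 0.32, 0.053, 0.98 and 0.52 in these tissues, and none passed (adjusted p = 0.894, 0.977, 0.983 and 0.945). Nfkb1 in spleen and BM had differences of 0.81 ± 0.44 and 0.93 ± 0.44 (adjusted p = 0.282 and 0.312), and their libraries did not overlap with the primary monocytes, as was the case for 21.1% of genes in each of these organs. In spleen Nfkb2 and Nod2 did not overlap either, and in liver Nod2 did not (43.9% of genes). With TMM factors Nfkb2 differed by 0.79 in SI, 0.48 in liver, 1.66 in spleen and 1.14 in BM. Nod2 then differed by 0.53, 1.00, 0.93 and 0.13 in the same tissues, and none of these passed.

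**Figure D4:**
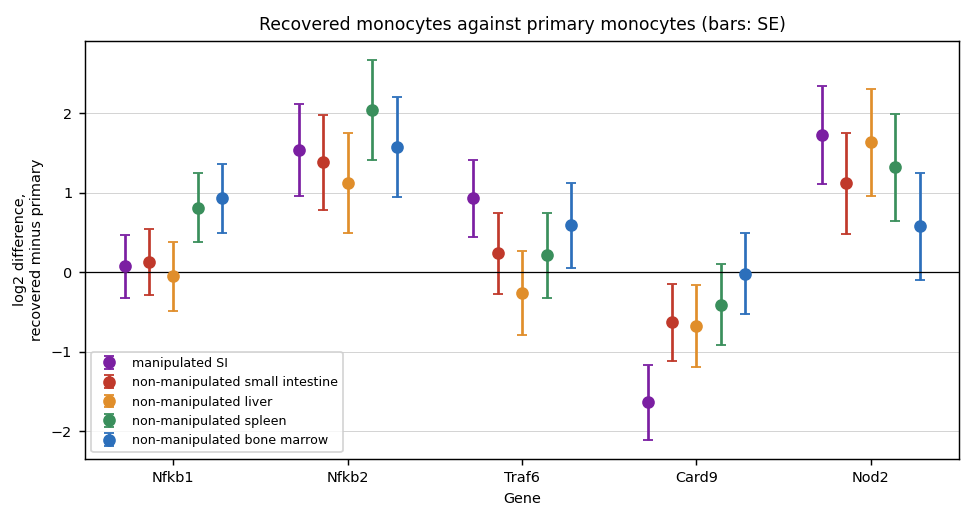
Difference between recovered and primary monocytes of non-manipulated donors (vertical axis, log2, positive where recovered cells are higher) for each gene in manipulated SI and in 4 tissues of non-manipulated recipients, with SE bars. Nfkb2 lies above 0 throughout, between 1.12 and 2.05, and Card9 is lowest in manipulated SI at -1.64. The median of all genes also lies above 0 in each comparison, between 0.37 and 1.00.

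Among the other pathway genes in manipulated SI against primary monocytes, 2 of the 7 sensor, adaptor and subunit genes were higher, namely Trem1 (3.28 ± 0.84, adjusted p = 0.00274) and Cd14 (3.23 ± 0.69, adjusted p = 0.000555), and 11 of 14 target genes were higher, with 0 lower in either list. Of all 57 genes 31.6% were higher. The medians of the lists were 1.21 and 3.94, against 0.64 over all genes. Both lists were chosen with earlier results of these data known. Relb, which encodes the partner of p52, had a difference of 1.45 ± 0.62 (adjusted p = 0.0673), close to that of Nfkb2.

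The origin of the monocytes was addressed in non-manipulated SI, where cells of manipulated donors were compared with cells of non-manipulated donors. No member passed, and neither did any other gene (0% of 57), while 8.77% of genes but 0 members had an unadjusted p under 0.05. Card9 was at 14.08, 15.09, 14.19 and 14.65 with manipulated donors and at 14.54, 14.33, 14.99 and 14.35 with non-manipulated donors. Nod2 differed by 0.38 ± 0.52 and Traf6 by 0.30 ± 0.41 (adjusted p = 0.885 for both). The groups overlapped for all 5 members.

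Manipulated SI was also compared with this group, which differs in both the donor and the recipient. No member passed, where 8.77% of genes did. Card9 was lower, with no overlap of the libraries (10.5% of genes) and a difference of -0.95 ± 0.38 that did not pass after adjustment (adjusted p = 0.119). With DESeq2 on the same scaling its adjusted p was 0.04. Traf6 differed by 0.39 ± 0.39 (adjusted p = 0.558). Without libraries 3 and 4 of manipulated SI, Card9 differed by -1.04 and Traf6 by 0.89, and neither passed (limma adjusted p = 0.112 and 0.153).

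The genes whose level followed each member most closely over the 33 libraries are given as a description, since libraries of a group share a tissue and both genes of a pair share the scaling of each library. Nfkb2 was closest to Relb (Pearson r = 0.717, and 0.883 over the 11 group means), followed by Csf1r (0.608), the receptor for the macrophage growth factor M-CSF, and Il10ra (0.576), a chain of the IL-10 receptor. Nod2 was closest to Cd86 (0.724), a costimulatory ligand, Il1b (0.694), which encodes an inflammatory cytokine, and Cebpb (0.662), which encodes a myeloid transcription factor, and over the group means these reached 0.910, 0.903 and 0.904. Card9 was closest to Stat6 (0.736), the transcription factor of IL-4 signalling, Itgb7 (0.658), the gut-homing integrin chain, and Ccr2 (0.598), the chemokine receptor of classical monocytes.

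Nfkb1 was closest to Itgb7 (0.696) and Spi1 (0.590), which encodes the myeloid factor PU.1. Traf6 was closest to Tlr4 (0.628), the receptor for lipopolysaccharide, followed by Chil3 (0.502) and Cd80 (0.266), and over the group means these were 0.335, 0.467 and 0.084. Among the members themselves, Nfkb2 and Nod2 were the most alike (0.544) and Card9 and Nod2 the least (-0.514, and -0.708 over the group means). Nfkb1 and Nfkb2 had an r of 0.458, and Traf6 and Card9 of -0.183.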

How the data were processed

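Members and gene lists were chosen with earlier results of these data known. For each library of recovered cells the authors sorted 100 donor cells. RNA was reverse transcribed, pre-amplified with gene-specific primers and hybridised to barcoded probes. The deposited table holds barcode counts as read in 15 libraries. For the other 18 the deposited values are a signal, that is barcode counts times 1 constant per library (up to 4, reason not stated). Division gave whole numbers for 100% of 1988 values (tolerance 0.002). These recovered counts were used, although control probes carry the constant in 5 libraries only. A second deposited table holds a score, the same values rescaled per library to house-keeping genes by the authors. Counting software is not given in the sources used here.

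Counts were divided by size factors from the geometric mean of Actb, Gapdh and Rpl19, and log2 was taken with a pseudocount of 1. Genes above the mean plus 2 SD of the negative controls (16.8 to 65.2 counts) in at least 2 libraries were tested, which kept all 57. The main test was limma 3.58.1 (two-sided moderated test, R 4.3.3), with 1 mean for each of 11 groups over 33 libraries and Benjamini-Hochberg adjustment per comparison at 0.05. Correlations and sequence searches were computed in Python 3.11.15. The test was also run on simulated counts with known changes in manipulated SI. Those changes were larger than the member differences found there, so the run does not speak for differences of that size. Since counting followed PCR, counts are not independent molecules, and the number of libraries limits precision.

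The labels number mice within a group only, so p-values measure the spread between libraries, which may be technical. Deviations from group means of equally numbered libraries correlated in each of 3 pairs in spleen (lowest r = 0.409) and BM (0.532) between manipulated and non-manipulated recipients, which were taken as pairs on this basis alone, and not in SI (lowest r = -0.32). They also correlated between spleen and BM, in manipulated (lowest r = 0.691) and non-manipulated recipients (0.44). The main tests that compare or combine tissues treat all libraries as independent. Text names the 5 members throughout, the 3 genes most correlated with each (of which 1 is not reported here), and genes of 2 pathway lists past the threshold (at most 6). Alternatives changed the scaling, the test (edgeR 4.0.16, DESeq2 1.42.0, the methods' t-test), pseudocount, background, filter, samples, constant and libraries. Promoters were taken from RefSeq (GRCm38.p6).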

Additional observations from a re-analysis of the deposited data

How the results depend on the processing

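The 61 named results took 1253 values under alternatives other than a left-out library, of which 1155 kept sign and side of the threshold, 31 lost and 37 gained a call, and 30 had the other sign, 0 of these past the threshold. The cause of these changes was not tested unless stated. The other signs, for manipulated minus non-manipulated, were as follows. Nfkb1 in SI was 0.27 within libraries without a constant, 0.13 with DESeq2's own size factors and without libraries 3 and 4 of manipulated SI, 0.20 without Rpl19 and 0.48 with the authors' values. Nfkb1 in liver was -0.47 within libraries with a constant, as was Traf6 at -0.28. Nfkb2 in SI was -0.053 without Actb, -0.052 within libraries with a constant and -0.16 with total counts. Nfkb2 in spleen was 0.030 with TMM factors, 0.020 with total counts, 0.077 without Rpl19 and 0.18 with DESeq2's own size factors. Nfkb2 in BM was 0.12, 0.35, 0.17 and 0.26 under the same settings, 0.69 within libraries without a constant and 0.13 without the libraries numbered 2 of manipulated liver, spleen and BM. Card9 in liver was 0.13 with the authors' values and within libraries without a constant, and 0.022 without Rpl19. Nod2 was -0.23 in liver and 0.65 in BM within libraries without a constant, and in BM 0.020 without Rpl19 and 0.20 with total counts. Elsewhere, Nod2 was -0.47 for manipulated against non-manipulated donors in non-manipulated SI and Traf6 -0.19 for manipulated SI against that group, both within libraries with a constant, and Nod2 in non-manipulated BM was -0.070 against primary monocytes with total counts.

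Leaving out 1 library gave ranges of -0.21 to 0.080 for Nfkb1 in SI, -0.12 to 0.38 for Nfkb1 in liver, -0.17 to 0.41, -0.52 to 0.040 and -0.69 to 0.19 for Nfkb2 in SI, spleen and BM, -0.77 to 0.12 for Card9 in liver, and -0.091 to 0.74 and -0.92 to 0.12 for Nod2 in liver and BM.

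The count of members called in manipulated against non-manipulated SI was 1, and 0 without Rpl19, with DESeq2's own size factors, with the replicate number as a block and within libraries with or without a constant, 2 without libraries 3 and 4 of manipulated SI, and 0 to 1 when 1 library was left out. In BM it was 0, and 1 with the methods' unadjusted t-test. Manipulated SI against BM had 1 (0 to 1 without 1 library), 0 without Actb, with the adjusted t-test, with only these groups in the fit and within either kind of library, and 2 with edgeR or DESeq2. Manipulated SI against spleen had 0, and 1 with TMM factors, total counts or DESeq2's own size factors. Against liver it had 0, and 1 with the unadjusted t-test. Manipulated liver against BM had 0, and 1 without Rpl19, with the authors' values or with the unadjusted t-test. The F test over tissues of manipulated recipients had 0 (0 to 1 without 1 library), and 1 with TMM factors, total counts, without Rpl19, the authors' values, DESeq2 with either scaling or an unadjusted F test on these groups alone. That of non-manipulated recipients had 0, and 1 with DESeq2's own size factors or the unadjusted test. Non-manipulated SI against spleen had 0, and 1 with the unadjusted t-test. Non-manipulated SI or liver against BM had 0, and 1 with DESeq2's own size factors or the unadjusted t-test, and for liver within libraries without a constant.

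Manipulated SI against primary monocytes had 3 (1 to 3 without 1 library), and 1 with TMM factors, total counts, without Actb, DESeq2's own size factors, the adjusted t-test or only these groups in the fit. Each tissue of non-manipulated recipients had 0 (0 to 1 without 1 library), and 1 in SI with DESeq2's own size factors, in liver and spleen with DESeq2 on house-keeping factors, and in BM with the unadjusted t-test. Manipulated SI against SI with manipulated donors had 0, and 1 with DESeq2 on house-keeping factors or the unadjusted t-test. A further 69 member differences not named singly had 1912 values under alternatives, 231 with the other sign and 4 past the threshold.

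With the replicate number as a block, Card9 in SI was -0.92 (adjusted p = 0.0583, limma), Nod2 in non-manipulated liver against primary monocytes 1.91 (0.0289) and Nfkb2 in spleen 2.19 (0.0497), each in groups where the numbers do not pair the libraries. The block changed no other call of a member, those in spleen and BM included. Over all 57 genes, manipulated against non-manipulated SI had 19 calls, against 4 and 8 within libraries with and without a constant, where fewer libraries are compared. Manipulated SI against BM had 20, against 13 and 5 in the same way and 9 with the adjusted t-test, and manipulated SI against primary monocytes had 20, against 31 with DESeq2's own size factors and 13 with the adjusted t-test. The settings without libraries 3 and 4 of manipulated SI or the libraries numbered 2 were chosen after seeing the data. Limits are the 2 primary libraries, 2 libraries of manipulated liver, and the scaling, which rests on 3 house-keeping genes of which Rpl19 and Actb changed calls.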
